A study of Homo sapiens with 12 samples.

Results

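The 2′-5′-oligoadenylate synthetase (OAS) and interferon-induced protein with tetratricopeptide repeats (IFIT) families were described in 2 cell lines of classical Hodgkin lymphoma. Every probe set whose annotated gene symbol was OAS1, OAS2, OAS3, OASL, IFIT1, IFIT2, IFIT3 or IFIT5 was taken, which gave 16 probe sets of 8 genes among 54613 non-control probe sets. IFIT1 had 1 probe set, OAS2 had 3 and each of the other 6 genes had 2. The 12 arrays formed 4 groups of 3. They were L1236 cells given 1 µM 5-Aza-dC for 24 h and then kept in drug-free medium for 72 h, L1236 cells without treatment, L428 cells given the same treatment, and L428 cells without treatment. 5-Aza-dC (decitabine) is a deoxycytidine analogue that is built into replicating DNA, where it traps DNA methyltransferases and lowers methylation. No vehicle is named for the untreated cells, and each line is a single established cell line of the disease. The treatment note says that the work was done in triplicate, but nothing says that the replicates were separate cultures, so p-values measure the spread between these arrays, which may be technical.

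OAS1, OAS2 and OAS3 are enzymes that bind double-stranded RNA and make 2′-5′-linked oligoadenylates, the second messenger that switches on a latent endoribonuclease and so stops viral and cellular RNA from being translated. OASL is a related protein that makes no such messenger and is known to help the RNA sensor RIG-I. IFIT proteins bind RNA: IFIT1 holds messenger RNA whose cap lacks ribose methylation, IFIT3 stabilises IFIT1 in a complex with IFIT2, and IFIT5 binds uncapped RNA with a triphosphate end. Both families are textbook targets of type I and type III interferon, and the IFIT genes can also be switched on directly by interferon regulatory factors.

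The arrays were alike in scale, with medians of 3.01 to 3.08 on the log2 signal scale. Treated replicate 1 stood apart in both lines: its deviations from its group's mean had an SD of 0.35 in L1236 and 0.385 in L428, against 0.161 to 0.313 in the other 10 arrays. The treated L428 replicate 1 array correlated best with an untreated L428 array (r = 0.987 over probe sets). The labels of 1 array disagree: the source name of untreated L1236 replicate 1 describes treated L428 cells, while its description, used here, gives untreated L1236, and its values correlated best with untreated L1236 replicate 3 (r = 0.994). All 6 listed markers of Hodgkin Reed-Sternberg cells were measured. TNFRSF8, IRF4, FSCN1 and CCL17 had group means of 9.57 to 14.9 in both lines. CCL22 averaged 10.1 in treated and 3.61 in untreated L1236, against 6.86 in treated and 3.10 in untreated L428. TRAF1, an adaptor of CD30 signalling, was near the scale's floor in L1236, at 2.07 in treated and 2.10 in untreated cells, and averaged 11.7 in treated and 11.5 in untreated L428. CCL17 and CCL22, chemokines of these cells, were higher in treated L1236, and limma called 0 of the 6 in L428 (2 at an unadjusted p under 0.05). Of 5 listed B-cell markers 4 were measured. Their group means were 2.46 to 2.55 for MS4A1, 3.53 to 3.78 for CD79A, 4.13 to 5.10 for CD79B and 3.95 to 5.58 for CD22. In either line 0 were called (2 in L1236 and 0 in L428 at an unadjusted p under 0.05). Of all genes, 7.41% were called higher and 4.99% lower in L1236, against 2.84% and 1.02% in L428. With such shares, 0 calls in lists this short say little.

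Promoter windows are shown because members of both families rose in the same arrays and because 5-Aza-dC acts on cytosine methylation. RefSeq windows of 300 bases (GRCh38.p14, from 250 bases before to 50 bases after the start site) were matched for 5 members, with 2 windows for IFIT3. No window was matched for OAS2, OASL and IFIT2. Both strands were searched for GAAA, any 2 bases and GAAA, taken here as the core of the interferon-stimulated response element, and for TTCNNNGAA, the gamma-activated site. The first is met in 3.57% of the 35116 RefSeq windows, and 0.259% hold it at least 2 times. The windows of IFIT1 (chr10:89392373-89392672, plus strand), IFIT5 (chr10:89414318-89414617, plus strand), OAS1 (chr12:112906712-112907011, plus strand) and OAS3 (chr12:112938224-112938523, plus strand) follow, 5′ to 3′, with each response element core in capitals. A core on the minus strand reads as TTTC, 2 bases and TTTC here.
IFIT1: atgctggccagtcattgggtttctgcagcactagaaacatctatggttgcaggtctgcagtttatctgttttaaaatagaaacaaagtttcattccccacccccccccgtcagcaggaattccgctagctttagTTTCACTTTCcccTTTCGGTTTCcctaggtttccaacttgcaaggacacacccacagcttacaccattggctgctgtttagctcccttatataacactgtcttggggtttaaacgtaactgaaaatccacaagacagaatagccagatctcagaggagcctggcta
IFIT5: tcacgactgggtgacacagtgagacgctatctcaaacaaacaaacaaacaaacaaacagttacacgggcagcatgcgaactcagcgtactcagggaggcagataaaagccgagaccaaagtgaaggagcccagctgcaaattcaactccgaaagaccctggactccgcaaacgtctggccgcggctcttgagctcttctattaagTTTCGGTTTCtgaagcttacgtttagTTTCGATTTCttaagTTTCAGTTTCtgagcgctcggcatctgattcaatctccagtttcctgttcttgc
OAS1: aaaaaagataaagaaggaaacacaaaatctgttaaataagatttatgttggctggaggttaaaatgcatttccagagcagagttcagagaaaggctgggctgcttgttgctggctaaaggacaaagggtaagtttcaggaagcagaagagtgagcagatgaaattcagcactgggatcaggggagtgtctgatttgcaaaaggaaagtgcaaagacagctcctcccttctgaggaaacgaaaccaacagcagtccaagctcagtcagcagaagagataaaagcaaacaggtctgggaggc
OAS3: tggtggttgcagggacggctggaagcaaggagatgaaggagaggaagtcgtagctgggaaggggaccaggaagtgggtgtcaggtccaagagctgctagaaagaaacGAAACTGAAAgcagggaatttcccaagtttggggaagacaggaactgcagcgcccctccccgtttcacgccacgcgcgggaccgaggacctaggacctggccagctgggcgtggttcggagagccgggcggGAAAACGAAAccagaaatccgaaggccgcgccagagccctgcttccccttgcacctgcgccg
IFIT1 held 2 cores, at -116 to -107 and -103 to -94 from the start site, only a few bases apart. IFIT5 held 3, at -45 to -36, -19 to -10 and -4 to 6, so that the last spans the start. The OAS3 window held 2 on the plus strand, at -143 to -134 and -12 to -3. Each of the 2 IFIT3 windows (chr10:89327747-89328046 and chr10:89332279-89332578, plus strand) held 2 as well. The OAS1 window held none of this exact core and 1 gamma-activated site, at -168 to -160, a motif that 7.66% of all windows hold. It does hold GAAACGAAA, with 1 base between the 2 copies of GAAA, a spacing that was not searched for. A match is a string of letters and says nothing about whether a factor binds, and a missing match says only that these letters were not in this window.

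The count of CG dinucleotides, the sites that DNA methyltransferases modify, differed between the members' windows. It was 20 for OAS3 and 16 for IFIT5, against 5 and 1 for the IFIT3 windows, 4 for IFIT1 and 1 for OAS1. The median over all windows was 14, with quartiles of 4 and 28, so OAS3 and IFIT5 lay above the median and the other 4 windows below it. DNA methylation itself was not analysed here.

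**Figure D1:**
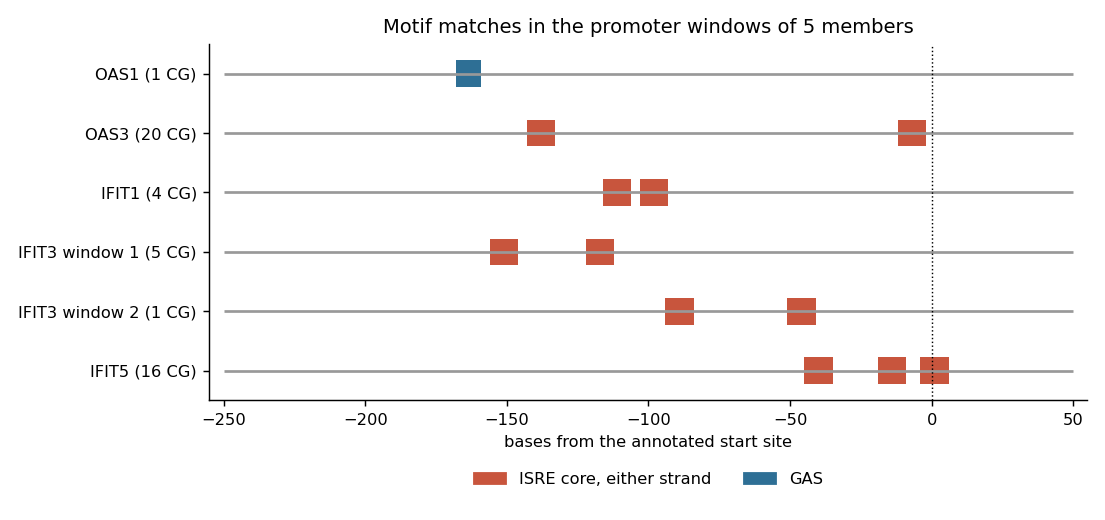
Position of response element cores and gamma-activated sites, in bases from the start site, in the 6 RefSeq promoter windows of 5 members; each row is a window, with its count of CG dinucleotides. IFIT1, IFIT3, IFIT5 and OAS3 hold 2 or 3 cores each, and OAS1 holds 1 gamma-activated site and no core of the searched spacing. GAAACGAAA in the OAS1 window, with 1 base between the copies of GAAA, was not searched for and is not shown.

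After 5-Aza-dC, all 8 genes were higher in treated than in untreated L428, and 4 genes, OAS3, OASL, IFIT3 and IFIT5, were called higher in treated L1236. In L1236, 6 of the 16 probe sets passed an adjusted p under 0.05 and all 6 were higher, against a background of 4.58% of all probe sets called higher (9.02% in either direction). In L428, 16 of 16 passed and were higher, against a background of 1.82% (3.02% in either direction). The 6 probe sets called in L1236 were higher in both lines, against 0.648% of all probe sets. The median change over the 16 was 1.93 on the log2 scale in L1236, with a range of 0.07 to 3.01, and 4.80 in L428, with a range of 2.58 to 7.28. Over all probe sets the median was -0.03 in L1236 and -0.02 in L428. The L1236 count rested on the arrays used, as did the share of all probe sets called in either direction, given here in brackets. The count was 13 of 16 without treated L1236 replicate 1 (16%). It was 3 of 16 without treated replicate 2 (4.58%), treated replicate 3 (4.72%), untreated replicate 2 (5.17%) or untreated replicate 3 (4.66%). Without untreated L1236 replicate 1, the array with conflicting labels, it was 4 of 16 (7.01%). In L428 it was 13 to 16 of 16 when any 1 of the 12 arrays was left out (1.31% to 11.2%), with 16 without treated L428 replicate 1 (11.2%). With the replicate number as a block it was 15 (3.34%), without IFIT5 203595_s_at (adjusted p = 0.0524). The arrays come from whole cultures, so fewer expressing cells and less RNA per cell cannot be told apart.

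**Figure D2:**
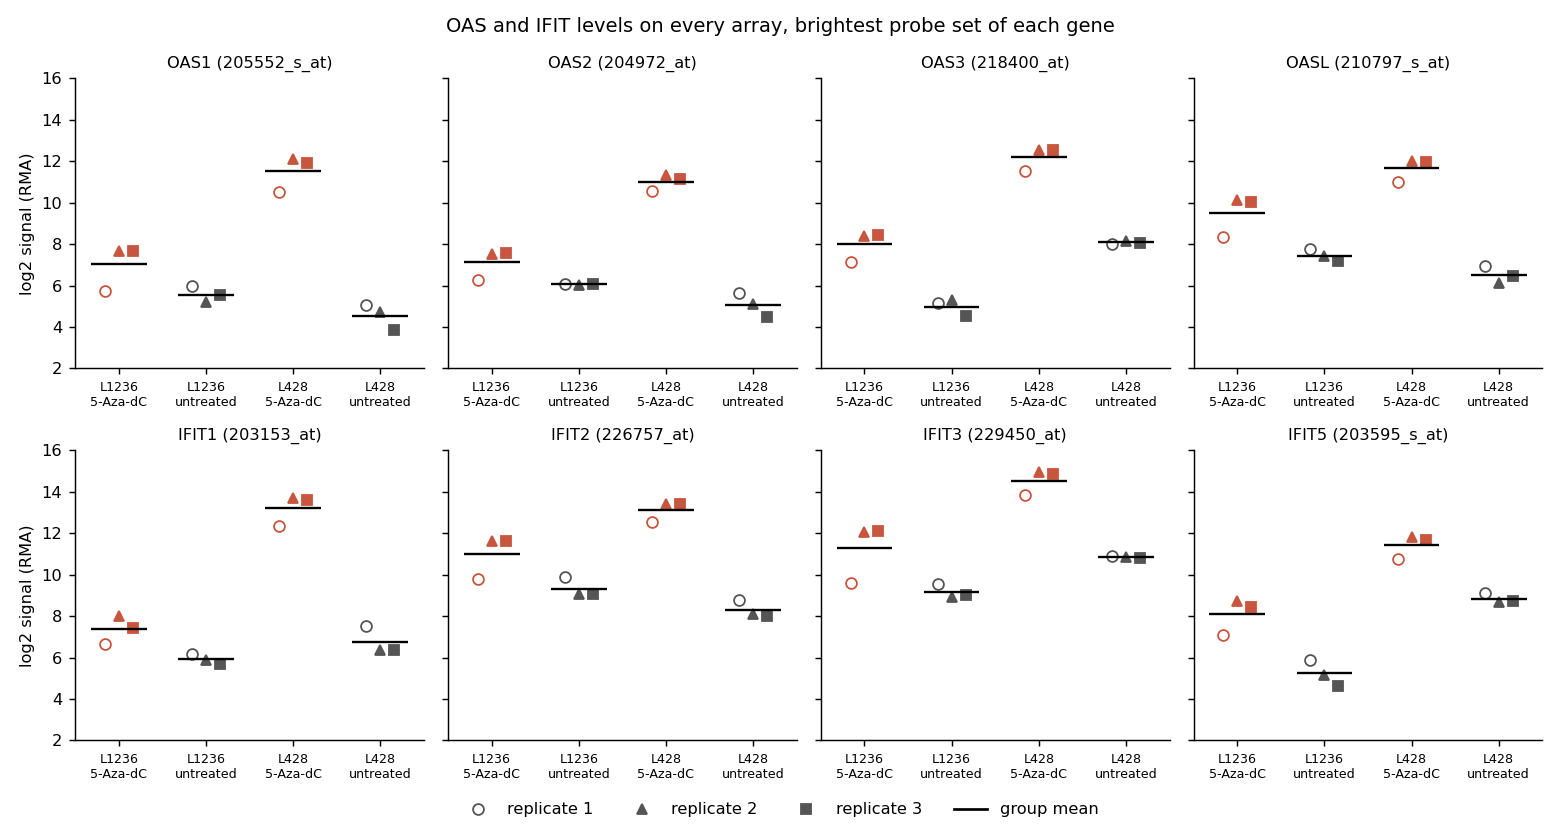
Log2 signal of the brightest probe set of each of the 8 genes on each of the 12 arrays (1 symbol per array), with group means (lines), for treated and untreated L1236 and treated and untreated L428. Treated L428 is the highest group in all 8 panels, and its 3 arrays lie above every other array.

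OAS1, the smallest of the synthetases, showed the largest change in L428. Probe set 205552_s_at read 5.76, 7.69 and 7.67 in treated L1236 replicates 1, 2 and 3, against 5.96, 5.20 and 5.54 in untreated L1236. It read 10.53, 12.10 and 11.92 in treated L428, against 5.04, 4.72 and 3.83 in untreated L428. Treated L1236 replicate 1 lay among the untreated arrays, while in L428 every treated array lay far above every untreated one. The change was 1.47 ± 0.62 (log2, SE; adjusted p = 0.188) in L1236, which did not pass, and 6.99 ± 0.62 (adjusted p = 0.000698) in L428, a 127-fold rise. The other probe set, 202869_at, read 6.43, 7.98 and 8.26 in treated L1236, against 5.93, 5.29 and 5.85 in untreated L1236. In L428 it read 9.80, 11.24 and 11.03 in treated cells, against 3.26, 3.65 and 3.32 in untreated cells. Here all treated arrays of both lines lay above the untreated ones. Its change was 1.86 ± 0.51 (adjusted p = 0.058) in L1236 and 7.28 ± 0.51 (adjusted p = 0.000234) in L428, a 156-fold rise. Untreated L428 levels near 3 lie close to the lower end of the scale, so the size of that fold depends on where the floor was set.

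OAS2, the mid-sized synthetase, had 3 probe sets, none of which passed in L1236 and all of which rose in L428. Probe set 204972_at read 6.28, 7.51 and 7.59 in treated L1236, against 6.09, 6.02 and 6.09 in untreated L1236. In L428 it read 10.55, 11.35 and 11.14 in treated cells, against 5.65, 5.10 and 4.50 in untreated cells. The groups did not overlap in either line. The changes were 1.06 ± 0.40 (adjusted p = 0.147) in L1236 and 5.93 ± 0.40 (adjusted p = 0.00017) in L428, where the rise was 60.9-fold. The other 2 probe sets changed by 0.30 and 0.54 in L1236, where treated and untreated arrays overlapped, and by 4.76 and 4.67 in L428 (adjusted p = 0.000376 and 0.00024).

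OAS3, the largest synthetase, rose in both lines by its brighter probe set, and this L1236 call held in each of the 12 fits that left out 1 array. That probe set, 218400_at, read 7.16, 8.38 and 8.46 in treated L1236, against 5.17, 5.29 and 4.51 in untreated L1236. It read 11.54, 12.55 and 12.53 in treated L428, against 8.02, 8.17 and 8.05 in untreated L428. All treated arrays lay above all untreated arrays in both lines, and treated L1236 lay close to untreated L428. The rise was 3.01 ± 0.40 (8.05-fold, adjusted p = 0.00236) in L1236 and 4.13 ± 0.40 (17.5-fold, adjusted p = 0.00104) in L428. The dimmer probe set, 232666_at, did not follow in L1236: it read 2.83, 3.14 and 2.98 in treated and 2.49, 3.12 and 3.13 in untreated L1236, at the lower end of the scale. In L428 it read 6.64, 8.40 and 8.48 in treated and 3.12, 4.63 and 3.90 in untreated cells, a rise of 3.95 ± 0.52 (adjusted p = 0.00534).

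OASL, the synthetase-like protein without the enzyme activity, rose in both lines. Probe set 210797_s_at read 8.35, 10.14 and 10.06 in treated L1236, against 7.74, 7.41 and 7.17 in untreated L1236. It read 10.98, 12.03 and 11.99 in treated L428, against 6.95, 6.11 and 6.48 in untreated L428. No treated array overlapped an untreated one. The rise was 2.08 ± 0.50 (adjusted p = 0.0343) in L1236 and 5.15 ± 0.50 (adjusted p = 0.00105) in L428. The other probe set, 205660_at, gave 2.0 ± 0.44 (adjusted p = 0.0249) in L1236 and 5.46 ± 0.44 (adjusted p = 0.000436) in L428. The L1236 calls were not stable when 1 of the 12 arrays was left out: 210797_s_at passed in 4 of 12 fits, with adjusted p up to 0.132, and 205660_at in 7 of 12, with adjusted p up to 0.101.

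IFIT1, the sensor of incompletely capped RNA, read 6.65, 8.0 and 7.45 in treated L1236, against 6.18, 5.90 and 5.70 in untreated L1236. In L428 it read 12.37, 13.73 and 13.62 in treated cells, against 7.51, 6.38 and 6.38 in untreated cells. Treated arrays lay above untreated arrays in both lines, by far more in L428. The change was 1.44 ± 0.48 (adjusted p = 0.107) in L1236, which did not pass, and 6.48 ± 0.48 (89.3-fold, adjusted p = 0.000286) in L428, the largest of the IFIT family.

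IFIT2, the partner that joins the IFIT1 and IFIT3 complex, was called in L428 but in neither of its probe sets in L1236. Probe set 226757_at read 9.78, 11.65 and 11.61 in treated L1236, against 9.88, 9.05 and 9.05 in untreated L1236. In L428 it read 12.53, 13.44 and 13.43 in treated cells, against 8.76, 8.10 and 8.01 in untreated cells. Treated L1236 replicate 1 lay inside the untreated range, and the L428 groups were far apart. The change was 1.68 ± 0.52 (adjusted p = 0.0869) in L1236 and 4.84 ± 0.52 (adjusted p = 0.00197) in L428. For 217502_at it was 2.25 ± 0.60 (adjusted p = 0.0505), just short of the threshold, in L1236 and 5.40 ± 0.60 (adjusted p = 0.00222) in L428.

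IFIT3, which stabilises IFIT1, had the highest level of any member probe set on these arrays, although levels of different probe sets are not on a common scale. Probe set 204747_at read 7.93, 10.35 and 10.21 in treated L1236, against 7.46, 6.97 and 6.88 in untreated L1236. It read 12.33, 13.56 and 13.50 in treated L428, against 8.73, 9.03 and 9.03 in untreated L428. The arrays of each line were separated, with treated L1236 replicate 1 only just above the untreated ones. The rise was 2.39 ± 0.61 (adjusted p = 0.0432) in L1236, which held in 2 of 12 fits without 1 array, and 4.20 ± 0.61 (adjusted p = 0.00836) in L428. The brighter 229450_at changed by 2.11 ± 0.62 (adjusted p = 0.0733) in L1236 and rose by 3.68 ± 0.62 (adjusted p = 0.0173) in L428, where it held in 8 of 12 such fits.

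IFIT5, which binds triphosphate RNA, rose in both lines by both probe sets. Probe set 203595_s_at read 7.09, 8.72 and 8.45 in treated L1236, against 5.90, 5.16 and 4.64 in untreated L1236. It read 10.76, 11.84 and 11.69 in treated L428, against 9.13, 8.68 and 8.75 in untreated L428. All treated arrays lay above all untreated arrays in both lines. The rise was 2.85 ± 0.49 (7.23-fold, adjusted p = 0.00824) in L1236 and 2.58 ± 0.49 (5.97-fold, adjusted p = 0.0282) in L428. For 203596_s_at it was 2.61 ± 0.46 (adjusted p = 0.00955) in L1236 and 2.81 ± 0.46 (adjusted p = 0.0151) in L428. The L1236 calls of both probe sets held in all 12 fits without 1 array, while the L428 calls held in 7 and 8 of them. With the arrays of 1 line alone all 4 calls were lost, with adjusted p = 0.0643 and 0.0651 in L1236 and 0.0782 and 0.0641 in L428.

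**Figure D3:**
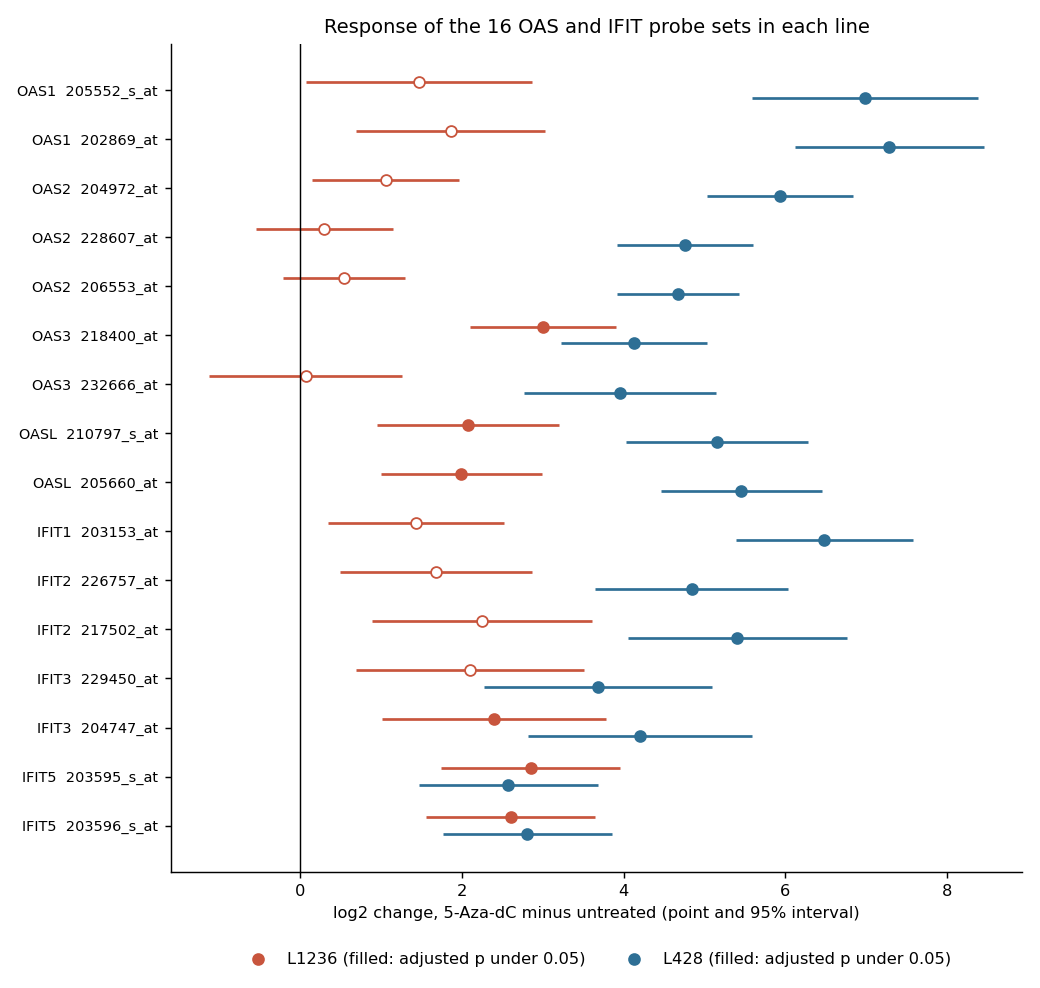
Change of each member probe set, treated minus untreated on the log2 scale, with its 95% interval, in L1236 and in L428. The L428 changes run from 2.58 to 7.28 and the L1236 changes from 0.07 to 3.01. The estimates of the lines lie closest for IFIT5, which does not show equal changes. The difference between the lines also did not pass for IFIT2, IFIT3, OAS3 218400_at and OASL 210797_s_at.

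Within L1236 the replicates differed in how far the families moved. Against the mean of the untreated L1236 arrays, the median of the 16 probe sets was 0.73 in treated replicate 1, 2.41 in replicate 2 and 2.54 in replicate 3. The number at least 2-fold above that mean was 4, 14 and 13. The probe sets that were called higher in L1236 over the whole table also moved least in replicate 1, with medians of 1.09, 1.60 and 1.64. In L428 the medians of the 16 were 4.21, 5.20 and 5.12 in treated replicates 1, 2 and 3, and all 16 were at least 2-fold up in each. The first array was the low one in each line, for the families and for the called probe sets of the table alike. Without replicate 1, the L1236 count of 13 of 16 stood against 16% of all probe sets called, and without both treated arrays numbered 1 it was 13 of 16 against 19.3%. All 3 treated arrays lay above all 3 untreated arrays for 11 of the 16 probe sets in L1236, against 10.3% of all probe sets, and for 16 of 16 in L428, against 6.41%.

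**Figure D4:**
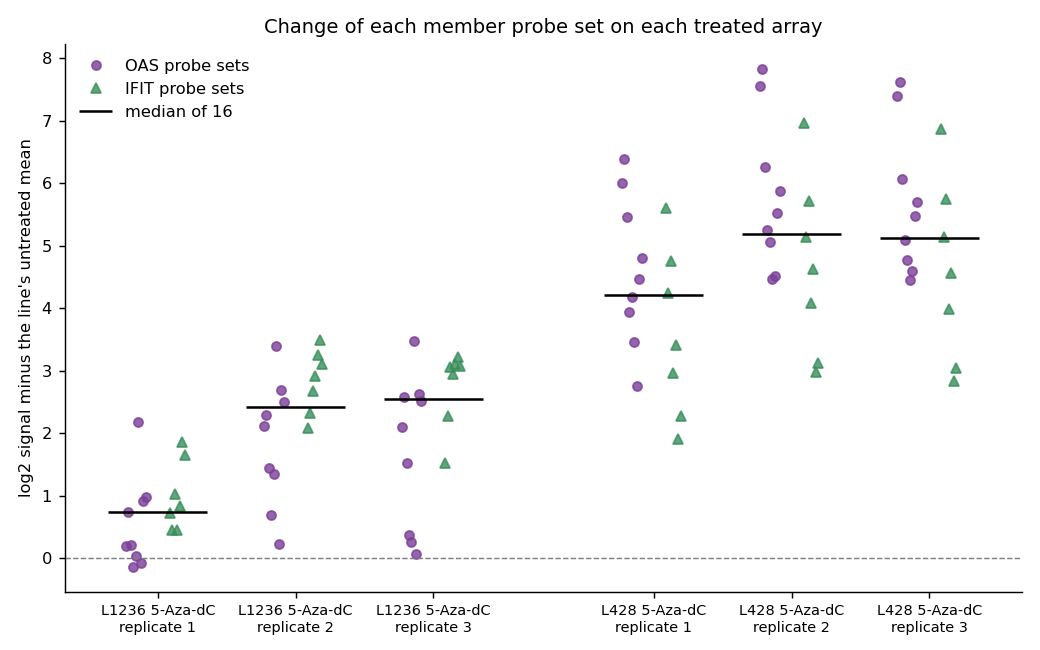
Change of each member probe set in each treated array, against the mean of the untreated arrays of the same line, on the log2 scale; the line in each column is the median. In L1236 the median is 0.73 in replicate 1 and 2.41 and 2.54 in the other arrays, and in L428 it is 4.21, 5.20 and 5.12.

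The difference between the lines' responses was tested as an interaction term, L1236 minus L428. It passed for 8 of the 16 probe sets, all lower in L1236, against backgrounds of 1.15% called lower and 1.42% called higher. These were all probe sets of OAS1, OAS2 and IFIT1 and 1 of the 2 probe sets of OAS3 and of OASL. OAS1 gave -5.51 ± 0.87 and -5.42 ± 0.73 (adjusted p = 0.0146 and 0.00684), so that its change was 45.7-fold and 42.7-fold smaller in L1236. OAS2 gave -4.87, -4.46 and -4.12 (adjusted p = 0.00323, 0.00355 and 0.00295), and IFIT1 gave -5.04 ± 0.68 (adjusted p = 0.00697). These 6 held in each of the 12 fits without 1 array. For OAS3 the dimmer 232666_at passed at -3.88 (adjusted p = 0.0324) in the full fit and in 5 of the 12 fits, with adjusted p up to 0.0872. It was at the lower end of the scale in both L1236 groups, so its difference rests on the L428 arrays. The brighter 218400_at did not pass, at -1.12 with a 95% interval of -2.40 to 0.15 (adjusted p = 0.468). OASL passed for 205660_at at -3.46 (adjusted p = 0.0251; 5 of the 12 fits, with adjusted p up to 0.0723) and not for 210797_s_at at -3.08 (adjusted p = 0.0616). The IFIT2 probe sets gave -3.16 and -3.15 (adjusted p = 0.0683 and 0.108), and those of IFIT3 -1.58 and -1.81 (adjusted p = 0.545 and 0.436), none of which passed. IFIT5 gave 0.28, with a 95% interval of -1.29 to 1.84, and -0.20, with one of -1.68 to 1.27, which leaves room for a several-fold difference either way. Over the OAS family 7 of 9 probe sets passed, with a median of -4.12, and over the IFIT family 1 of 7, with a median of -1.81; a difference between the families was not tested. The count of 8 stood against 2.57% of all probe sets called in either direction. It was 10 without treated L1236 replicate 1 (6.57%) and 10 without treated L428 replicate 1 (5.6%). It was 7 without untreated L1236 replicate 1 (2.23%) and 13 without both treated arrays numbered 1 (10%).

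Between untreated L1236 and untreated L428, 2 of the 16 probe sets were higher in L1236 and 3 were lower, against backgrounds of 11.2% and 9.89% of all probe sets. The other 11 did not pass, and shares this near the background are no result about the families. The 5 calls became 9 without treated L1236 replicate 1 (21.8% of all probe sets called), and stayed at 5 without untreated L1236 replicate 1 (17.9%). OAS1 202869_at averaged 5.69 ± 0.35 in untreated L1236 and 3.41 ± 0.21 in untreated L428 (SD, n = 3 arrays each; difference 2.28, adjusted p = 0.0114), and OAS2 228607_at averaged 6.80 ± 0.12 in untreated L1236 and 4.24 ± 0.46 in untreated L428 (2.56, adjusted p = 0.000987). The other probe sets of these 2 genes did not pass, with 1.03 for OAS1 205552_s_at (adjusted p = 0.353), 0.98 for OAS2 204972_at (adjusted p = 0.135) and 0.02 for OAS2 206553_at (adjusted p = 0.982). OAS3 218400_at averaged 4.99 ± 0.42 in untreated L1236 and 8.08 ± 0.08 in untreated L428 (-3.09, adjusted p = 0.000473). Both IFIT5 probe sets were lower in untreated L1236, by differences of -3.62 and -2.13 (adjusted p = 0.000625 and 0.00907). After treatment, 16 of 16 probe sets were lower in L1236 than in L428, by differences of -1.90 to -5.87, against a background of 9.9% called lower. With the replicate number as a block the count was 15 (22.3% of all probe sets called in either direction), without IFIT2 217502_at (adjusted p = 0.0806). With the treated arrays alone it was 10 (16.1%). The order and overlap of the 4 groups were counted for the 16 members only, so no share over all probe sets stands beside these counts. Treated L428 arrays lay above those of every other group for 16 of 16. Treated L1236 came second for 13 probe sets and untreated L428 for 3, both of OAS3 and 203595_s_at of IFIT5. The arrays of treated L1236 and untreated L428 overlapped for 8 of the 16, namely for all probe sets of OAS3, IFIT1, IFIT3 and IFIT5 and for 206553_at of OAS2. For the first 4 genes these groups are neighbours in the order, and for OAS2 206553_at untreated L1236 lies between them. A difference between treated L1236 and untreated L428 was not tested, and overlap of 3 arrays each does not show equal levels.

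The pathway around the families was read from lists of genes, with 1 probe set per gene. In that form 7.41% of 19775 genes were called higher in L1236 and 2.84% in L428, with 4.99% and 1.02% called lower, and the medians over all genes were -0.03 in L1236 and -0.02 in L428. Of 10 interferon ligands listed, 9 were measured. In L1236 limma called 0 of them (1 at an unadjusted p under 0.05). In L428 it called 3, all higher (4 at an unadjusted p under 0.05). The list's median was -0.02 in L1236 and 0.26 in L428. IFNB1, the type I interferon beta, read 2.44, 4.94 and 3.62 in treated L1236, against 2.44 to 2.46 in untreated L1236, and 5.38, 8.17 and 8.51 in treated L428, against 2.44 to 2.49 in untreated L428. Its change was 1.21 ± 0.83 (adjusted p = 0.348) in L1236 and 4.89 ± 0.83 (adjusted p = 0.0174) in L428. The type III interferon IFNL1 read 2.29, 5.15 and 5.02 in treated L1236 replicates 1, 2 and 3, against 2.27 to 2.32 in untreated L1236. In L428 it read 6.96, 7.19 and 8.19 in treated cells, against 2.28 to 2.31 in untreated cells. IFNL1 changed by 1.86 ± 0.68 (adjusted p = 0.137) in L1236 and rose by 5.15 ± 0.68 (adjusted p = 0.00525) in L428. Its relative IFNL2 read 2.18 to 2.22 in treated L1236, against 2.22 to 2.23 in untreated L1236, and read 7.90, 8.01 and 9.35 in treated L428, against 2.23 to 2.27 in untreated L428. The IFNL2 response differed between the lines by -6.20 ± 0.44 (adjusted p = 0.000179), the IFNB1 difference was -3.68 (adjusted p = 0.181) and that of IFNL1 was -3.29 (adjusted p = 0.14). IFNL2 has near-identical relatives whose RNA may read on the same probes, and all untreated levels of these ligands were near the floor.

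Of 18 genes of interferon receptors and signalling, 16 were measured, of which 6 rose in L1236 and 5 in L428, and 0 fell in either (2 in L1236 and 1 in L428 at an unadjusted p under 0.05), with list medians of 0.59 in L1236 and 0.27 in L428. IRF7, the regulatory factor that amplifies interferon production, rose by 2.75 ± 0.49 (adjusted p = 0.0106) in L1236 and by 4.76 ± 0.49 (adjusted p = 0.00164) in L428. USP18, which turns down signalling at the type I receptor, changed by 0.76 ± 0.30 (adjusted p = 0.168) in L1236 and rose by 3.61 ± 0.30 (adjusted p = 0.000523) in L428, and this difference passed (-2.85, adjusted p = 0.0112). IFNLR1, the specific chain of the type III receptor, had a rise of 2.77 ± 0.33 (adjusted p = 0.00136) in L1236 and a change of 1.08 ± 0.33 (adjusted p = 0.137) in L428, but that difference did not pass (1.70, adjusted p = 0.115). Of 10 IFIT partners, RNA sensors and cap enzymes, 9 were measured, with 2 higher and 1 lower in L1236 and 2 higher in L428, and medians of 0.10 in L1236 and 0.03 in L428. RIGI, the RNA sensor RIG-I, rose by 2.49 ± 0.63 (adjusted p = 0.0427) in L1236 and 6.16 ± 0.63 (adjusted p = 0.00152) in L428. STING1, the adaptor of cytosolic DNA sensing, rose by 1.01 ± 0.22 (adjusted p = 0.022) in L1236 and 1.04 ± 0.22 (adjusted p = 0.0401) in L428. EIF3E, a subunit of the translation factor that IFIT proteins bind, fell by 0.76 ± 0.18 (adjusted p = 0.0313) in L1236 and changed by -0.56 (adjusted p = 0.151) in L428. Of 4 genes of the oligoadenylate arm, 3 were measured (ABCE1, PDE12 and AKAP7), with 0 called in either line (1 in L1236 and 0 in L428 at an unadjusted p under 0.05) and medians of -0.28 in L1236 and -0.09 in L428; these degrade the messenger or restrain the endoribonuclease it switches on, which was not analysed here.

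**Figure D5:**
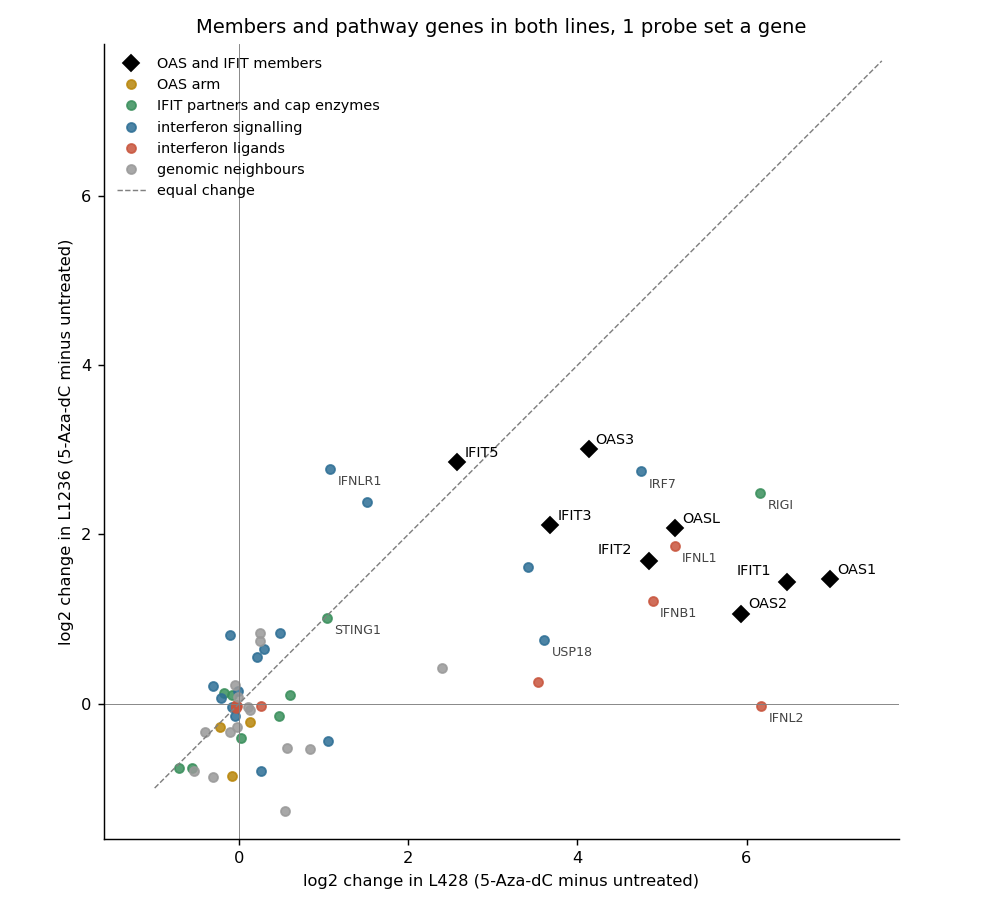
Change in L1236 (vertical axis) against change in L428 (horizontal axis), treated minus untreated on the log2 scale, for members and for the measured genes of the listed pathway groups, 1 probe set per gene. The ligands IFNB1, IFNL1 and IFNL2 and 7 of the 8 members lie below the dashed line of equal change. IFIT5, by its brighter probe set, and the receptor chain IFNLR1 lie above it. A side of the line is not a test, and neither of these 2 differences passed (adjusted p = 0.956 and 0.115). The other IFIT5 probe set, not shown, changed by 2.61 in L1236 and 2.81 in L428.

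The IFIT genes lie together on chromosome 10, OAS1, OAS3 and OAS2 together on chromosome 12, and OASL elsewhere on chromosome 12. Of 19 neighbouring protein-coding genes, 15 were measured, of which 1 rose and 2 fell in L1236 and 0 were called in L428 (4 at an unadjusted p under 0.05), with medians of -0.28 in L1236 and 0.10 in L428. The L1236 counts stand against 7.41% of all genes called higher and 4.99% called lower. FAS, a death receptor beside the IFIT cluster, rose by 0.83 ± 0.20 (adjusted p = 0.0332) in L1236. PANK1, an enzyme of coenzyme A synthesis on the other side of that cluster, fell by 0.79 ± 0.15 (adjusted p = 0.0142), and RPL6, a ribosomal protein beside the OAS cluster, fell by 0.28 ± 0.03 (adjusted p = 0.0011).

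Markers of other cell types moved in L1236 beside the members. Of 19 measured T and NK cell, myeloid, and fibroblast and epithelial markers, 7 were higher in treated L1236. These were CD8A, CD3D, ITGAM, CLEC4C, EPCAM, KRT18 and COL1A1. In treated L428 it was 0 of 19 (4 at an unadjusted p under 0.05). Of all genes, 7.41% were called higher in L1236 and 2.84% in L428, so the L428 count is near its background. The summed log2 signal of the 7 T and NK cell markers was 24.39 to 25.53 in treated L1236, against 18.09 to 18.91 in untreated L1236, and 19.62 to 22.47 in treated L428, against 18.19 to 19.94 in untreated L428. For the 6 myeloid markers it was 21.1 to 22.91 in treated L1236, against 18.62 to 19.08 in untreated L1236, and 18.36 to 19.94 in treated L428, against 17.59 to 18.77 in untreated L428. For the 6 fibroblast and epithelial markers it was 37.19 to 40.02 in treated L1236, against 23.31 to 24.82 in untreated L1236, and 28.03 to 28.46 in treated L428, against 24.66 to 25.72 in untreated L428. The defining markers CD3E, a part of the T-cell receptor complex, and CD14, a monocyte receptor, stayed at 1.74 to 1.76 and 2.26 to 2.28 in every group, at the lower end of the scale. The part of other cells in the members' changes was not tested.

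The genes whose profile over the 12 arrays was most like a member's were sought among 19775 genes by the root mean square difference of centred log2 signals, given as a description. OAS1 and OAS2 were close to each other at 0.51, where the median over all genes was 2.76 for OAS1, and the closest gene outside the families was IFI44, an interferon-induced gene, at 0.80 for OAS1 and 0.55 for OAS2. OASL and IFIT2 were closer still at 0.23, and IRF7 followed at 0.37 for OASL and 0.46 for IFIT2. OAS3 and IFIT5 were at 0.61 from each other, and HERC5, the ligase that attaches ISG15, was the closest outside gene for both, at 0.64 for OAS3 and 0.42 for IFIT5, while ZNF550 came next for IFIT5 at 0.57. IFIT3 lay nearest to TMEM140 at 0.52 and HERC5 at 0.55. For IFIT1, IFIT3 and IFIT5 genes outside the families came before any member. The closest member to IFIT3, IFIT5, came at rank 13 with 0.74, and that to IFIT5, OAS3, at rank 4. For IFIT1 the closest genes were PRAMEF12 at 0.62 and CCNA1 at 0.66, whose changes in L428 were 6.20 and 7.03, and its closest member, OAS1, came at rank 10 with 0.89. The other outside genes among the closest 2 were CCDC144NL-AS1 for OAS1 at 0.81, IFI44L for OAS2 at 0.61, CADM1 for OAS3 at 0.69, RIGI for OASL at 0.57 and DHX58 for IFIT2 at 0.55.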

How the data were processed

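The values are on a log2 scale, as the authors deposited them after RMA (robust multichip average), a step taken from the submitters' processing notes with its version not given in the sources used here. Probe set names belong to a 3′ expression array although the study's design names a whole-transcript one, and the names were followed. Scanner output was not used here, so signal over background is unknown and a fold from a level of 2 to 3, the floor of the scale, is uncertain in size. Of 54675 probe sets, 62 controls were left out. By the platform annotation, 41091 probe sets carry a single gene symbol, 1801 carry more and 11721 carry no symbol, and 41037 of the first were matched by Entrez identifier to RefSeq (GRCh38.p14) for names. Groups came from the sample descriptions.

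A model of 4 group means was fitted to all 12 arrays with limma 3.58.1 in R 4.3.3, with empirical Bayes moderation, two-sided tests and Benjamini-Hochberg adjustment over 54613 probe sets. A probe set was called at an adjusted p under 0.05. On simulated data made for L428, the fit recovered 60%, 74%, 96% and 98% of probe sets changed by 1, 2, 4 and 6 on the log2 scale, with 8 false among 172 calls. These shares need not hold for the members. In L1236, changes of 2.08 and 2.0 passed for OASL. Changes of 1.86 for OAS1 202869_at, 2.11 for IFIT3 229450_at and 2.25 for IFIT2 217502_at did not. For a gene with several probe sets, lists used the one with the highest mean, which left 19775 genes. Figures were drawn with matplotlib 3.10.9.

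The text names all 8 members with every probe set. From each list it names up to 3 called genes with the smallest adjusted p in either line, and for each member the 2 closest outside profiles. Cell type markers and IFNG, which was not called, were named after their values were seen. The members, the lists of signalling genes, ligands, partners, the oligoadenylate arm, neighbours and cell type markers, and the tests were chosen with earlier results of these data known. Listed genes with no single-gene probe set in the annotation were not analysed here. The 22 alternatives left out each array in turn, used only the arrays compared, added the replicate number as a block, or changed the scaling, the filter, the weights or the moderation. Whether replicate numbers pair arrays was checked by the correlation of deviations from group means. It was over 0.1 for all 3 same-numbered pairs between treated and untreated L428 (0.260, 0.154 and 0.167). The same held between the treated lines (0.402, 0.278 and 0.224). Pairs of replicate 2 with replicate 3 were about as high, at 0.161 and 0.168 in L428 and 0.306 and 0.266 between the treated lines. These values set replicate 1 apart and do not show that replicates 2 and 3 pair by number. Same-numbered pairs were not all over 0.1 within L1236 (0.069, 0.012 and 0.103) or between the untreated lines (0.292, 0.185 and 0.081). Over the table, 11 of 18 same-numbered and 6 of 36 different-numbered pairs were over 0.1.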

Additional observations from a re-analysis of the deposited data

Results flagged for a closer look

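For 8 probe sets, the response to 5-Aza-dC differed between the lines by the interaction test, L1236 response minus L428 response on the log2 scale. The differences were -5.51 and -5.42 for OAS1, -4.87, -4.46 and -4.12 for OAS2, -3.88 for OAS3 232666_at, -3.46 for OASL 205660_at and -5.04 for IFIT1. All are smaller changes in L1236. Those of OAS3 232666_at, which was at the lower end of the scale in L1236, and OASL 205660_at passed in only 5 of the 12 fits without 1 array each. The other OAS3 probe set, which is brighter, gave -1.12 and did not pass. No group holds more than 3 arrays, so single arrays were not tested for standing apart.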

How the results depend on the processing

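The precision is limited by 3 arrays a group, and signal over background is unknown. In L1236, 6 of 16 members were called, against 9.02% of all probe sets. That count was 1 with the L1236 arrays alone (5.65%), 13 without both treated arrays numbered 1 (19.3%) and 10 with arrays centred on their median (24%). It was 11 without the dimmer probe sets (23.6% of those kept) and 3 of 8 with 1 probe set per gene (14.9% of genes). It was 13 with array weights, whose estimation stopped short of convergence and where 54.1% of all probe sets were called. With 1 array left out it was 3 to 13 (4.58% to 16%). In L428, the 16 called (3.02% of all probe sets) became 13 with the L428 arrays alone (0.447%). They became 8 of 8 with 1 probe set per gene (4.65% of genes) and 13 to 16 with 1 array left out (1.31% to 11.2%). The 8 called for the difference (2.57% of all probe sets) became 13 without both treated arrays numbered 1 (10%). They became 5 of 8 with 1 probe set per gene (4.62% of genes) and 6 to 10 with 1 array left out (1.34% to 6.57%). The 5 called between untreated lines (21.1% of all probe sets) became 8 with those arrays alone (20%) and 11 without both treated arrays numbered 1 (24.5%). They became 8 without the dimmer probe sets, where 46.2% of those kept were called, so that this count is near the background. With 1 probe set per gene 2 of 8 were called (28.8% of genes), and with 1 array left out 5 to 9 (17.6% to 22.7%). The 16 called between treated lines (21% of all probe sets) became 10 with those arrays alone (16.1%). They became 8 of 8 with 1 probe set per gene (31.2% of genes) and 13 to 16 with 1 array left out (17.3% to 22.2%). The cause was not tested, beyond fewer arrays or probe sets in the fit. Over the whole table, the 4927 calls of L1236 became 3084 with its arrays alone, 8725 without treated L1236 replicate 1, 10520 without both treated arrays numbered 1, 13111 with median centring and 29528 with array weights, and the lowest with 1 array left out was 2502. The 1647 calls of L428 became 244 with its arrays alone, 6091 without treated L428 replicate 1 and 7579 without both, and the lowest was 717. With the replicate number as a block, the calls were 6 in L1236 (10.8% of all probe sets), 15 in L428 (3.34%) and 8 for the difference (2.09%). They were 5 between untreated (22.4%) and 15 between treated lines (22.3%). In L1236 OAS1 202869_at was gained (adjusted p = 0.0451) and OASL 210797_s_at lost (adjusted p = 0.0504). In L428 IFIT5 203595_s_at and between treated lines IFIT2 217502_at were lost (adjusted p = 0.0524 and 0.0806). The block changed no other member's call. Values that changed sign were never called. With 1 array left out, OAS3 232666_at in L1236 ranged from -0.14 to 0.18, the difference from -0.058 to 0.777 for IFIT5 203595_s_at and from -0.47 to 0.28 for IFIT5 203596_s_at, and OAS2 206553_at between untreated lines from -0.025 to 0.10. IFIT5 203596_s_at also gave 0.0083 without both treated arrays numbered 1 and 0.30 with array weights, and OAS2 206553_at between untreated lines gave -0.091 with quantile normalization and -0.0085 with cyclic loess.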
